A study of Mus musculus with 27 samples.

Results

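Immediate early genes are genes whose transcription starts within minutes of a stimulus, without new protein synthesis. Their transcripts are short lived and are known to appear when cells are dissociated from a tissue. A total of 10 such genes were examined, namely the AP-1 subunit genes Fos, Fosb, Jun, Junb and Jund, the zinc finger factor Egr1, the stress factor Atf3, the nuclear protein gene Ier2, the survival gene Ier3 and the phosphatase gene Dusp1. They were picked by symbol from the GENCODE M21 annotation, and all 10 of the 10 symbols had a row among the 43346 genes of the count table. A filter on low counts kept 14482 genes for testing and 9 of the 10 members, and Fosb did not pass it.

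The libraries were made from poly(A) RNA of hepatocytes, the parenchymal cells of the liver. All mice were female and 12 weeks old, with no treatment named. Each of 9 inbred strains gave 3 libraries, titled as biological replicates: the classical strains NZO/HlLtJ, A/J, NOD/ShiLtJ, C57BL/6J, DBA/2J and 129S1/SvImJ and the wild-derived strains PWK/PhJ, WSB/EiJ and CAST/EiJ. The replicate numbers run from 1 to 5 and are not the same in every strain, and 7 strains, all but DBA/2J and WSB/EiJ, have a library numbered 1. What a number stands for, whether libraries came from separate animals, and how the cells were isolated are not given in the sources used here, so p-values measure the spread between these libraries. Library totals ran from 17015932 to 35078483 estimated counts. The hepatocyte gene Alb, which encodes albumin, had at least 80416 CPM (counts scaled to the library total) in every library.

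In textbook signalling, growth factors and stress reach these genes through MAP kinases, which act on serum response factor and its Elk partners at CArG boxes and on CREB family factors at cAMP response elements (CREs). Fos proteins pair with Jun proteins to form AP-1, and Egr1 binds a GC-rich site of its own. Dusp1 removes phosphate from MAP kinases and so acts against the signal that induces it.

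Upstream sequences are shown for 5 tested members whose window holds a CRE-type or AP-1-type match. Fosb, which was not tested, also holds one and is described below. The levels of Fos, Junb and Jun moved with Egr1 from library to library, while no such relation passed for Dusp1 and Atf3. Whether the matches bear on the levels was not tested. RefSeq windows (GRCm38.p6) were at hand for 8 of the 10 members, all but Egr1 and Ier2. The 250 bases before the start were searched on both strands for the CArG box by name, the CRE TGACGTCA, its core TGACG, the AP-1 site TGANTCA, the Jun variant TGACATCA, the TATA box (TATAAA or TATATA) and the EGR site GCGNGGGCG. A full CRE always contains the core on each strand. Lines are written 5′ to 3′ along the gene's own strand, with CRE-type and AP-1-type matches in capitals.
Fos, plus strand, chr12:85473751-85473838: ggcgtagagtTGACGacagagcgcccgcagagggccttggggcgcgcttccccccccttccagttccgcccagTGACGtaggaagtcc
Junb, minus strand, chr8:84978840-84978864: ttcctgacagTGACGcgagccgcct
Jun, minus strand, chr4:95052250-95052277: agcctcggggTGACATCAtgggctattt
Dusp1, minus strand, chr17:26508598-26508673: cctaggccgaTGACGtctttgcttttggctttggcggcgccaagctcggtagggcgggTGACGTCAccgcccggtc
Atf3, minus strand, chr1:191183334-191183350: aatagcattaCGTCAgc

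The Fos cores began 129 and 66 bases before the start, and a TATA box began 33 bases before it. Junb had a core 106 bases and Jun the variant site 45 bases before the start. Dusp1 held the full CRE 143 bases before its start and a further core at 191. In Atf3 the core lay on the reverse strand, 7 bases before the start, and in Fosb a core began at 60 and an EGR site at 50 bases before it. No match of the CRE or AP-1 type was found in the windows of Jund and Ier3, and no CArG box or TGANTCA in any of the 8. Bases farther upstream were not searched, so these absences hold for the windows only and not for the genes. Egr1 and Ier2 had no window. These starts are RefSeq's. They lay within 30 bases of the start of the GENCODE gene for Fos, Fosb, Jun, Junb and Ier3, but 1210 bases upstream of it for Jund and 34706 and 53656 bases downstream, inside the gene span, for Atf3 and Dusp1, so the Jund window does not adjoin the gene as counted. Among all 32851 RefSeq windows of this length, 17.8% held the core, 1.55% the full CRE, 2.93% TGACATCA, 15.6% a TATA box, 4.70% an EGR site, 6.75% TGANTCA and 1.47% a CArG box. GC content, which a CG-bearing motif follows, was 47.6% in the Jund window and 68.8% in the Fosb window, against a median of 52.4% over all windows.

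Per kilobase of exon, the most abundant member was Jund (12.7 CPM per kb, mean over 27 libraries), followed by Ier2 (12.0), Dusp1 (6.29), Junb (4.84), Egr1 (4.58), Jun (2.77), Fos (0.638), Atf3 (0.366), Ier3 (0.222) and Fosb (0.00581). The classical markers of induction, Fos and Fosb, were therefore among the lowest. Fosb had 28 counts in all, at most 5 in a library and 0 in 10 libraries, where a count of 0 allows up to 3 counts (counting error only). Jun and Jund are single-exon genes whose estimated counts were not whole in 21 and 27 libraries, as happens where a counting program shares reads among features.

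The members lie at chr12:85473890-85477273 (Fos), chr7:19302696-19310051 (Fosb), chr4:95049034-95052222 (Jun), chr8:84974484-84978718 (Junb), chr8:70698949-70700616 (Jund), chr18:34859823-34864984 (Egr1), chr1:191170296-191218039 (Atf3), chr8:84661331-84662852 (Ier2), chr17:35821684-35822923 (Ier3) and chr17:26505590-26562128 (Dusp1) on GRCm38. Annotated genes overlap Jun (Junos), Junb (Prdx2), Jund (Gm11175), Atf3 (Gm24748) and Dusp1 (Ergic1, Gm8225 and a pair of clone-named genes). The library kit is not stated to keep strand, so reads of overlapping genes on opposite strands cannot be told apart.

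Egr1, a transcription factor induced by growth signals and injury, spanned the widest range of the 10 genes on the log2(CPM + 0.5) scale. It was measured at 49.1, 6.12 and 4.04 CPM in replicates 1, 2 and 3 of 129S1/SvImJ, at 51.5, 6.04 and 3.08 in A/J, at 20.2, 1.66 and 2.82 in NOD/ShiLtJ, at 93.8, 26.0 and 7.54 in NZO/HlLtJ, and at 52.9, 119 and 4.91 in PWK/PhJ. C57BL/6J gave 15.8, 8.58 and 9.17 CPM in replicates 1, 2 and 4, and CAST/EiJ 12.4, 4.17 and 3.04 in replicates 1, 4 and 5. DBA/2J had 1.77, 2.91 and 5.29 CPM and WSB/EiJ 9.31, 24.8 and 8.24 in replicates 2, 3 and 4. Replicate 1 was the highest library of its strain in 6 of the 7 strains, and the exception was PWK/PhJ, where replicate 2 was higher. The extremes, 48 counts in NOD/ShiLtJ replicate 2 and 3466 counts in PWK/PhJ replicate 2, differed 71.6-fold in CPM, and within PWK/PhJ alone Egr1 went from 4.91 to 119 CPM.

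Fos, the AP-1 subunit most closely tied to acute stimulation, had low counts with the same high libraries in most strains. Replicates 1, 2 and 3 gave 1.27, 0.114 and 0.293 CPM in 129S1/SvImJ, 2.79, 0.374 and 0.0395 in A/J, 0.844, 0.139 and 0.697 in NOD/ShiLtJ, 5.07, 0.911 and 0.192 in NZO/HlLtJ, and 5.75, 8.28 and 0.166 in PWK/PhJ. In C57BL/6J it was 1.23, 1.31 and 0.421 CPM (replicates 1, 2 and 4), in CAST/EiJ 5.70, 0.997 and 1.29 (1, 4 and 5), in DBA/2J 0.380, 0.301 and 0.988 and in WSB/EiJ 0.464, 0.202 and 0.276 (2, 3 and 4). Only 1 read was counted in A/J replicate 3 and 241 in PWK/PhJ replicate 2. Replicate 1 was the highest library in 5 of 7 strains, and in C57BL/6J and PWK/PhJ replicate 2 was higher.

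**Figure D1:**
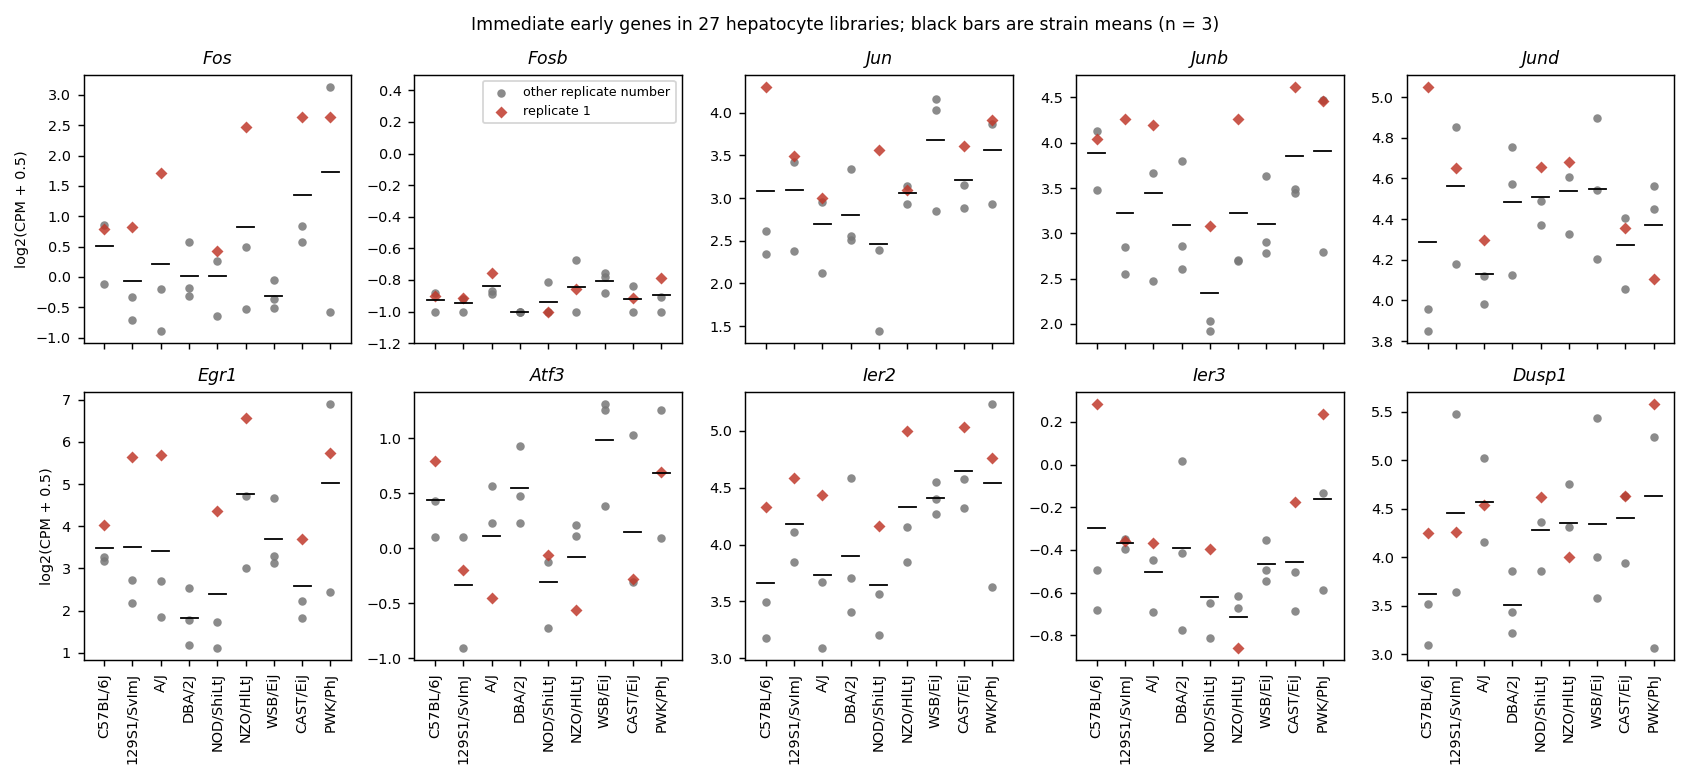
Level of each of the 10 genes, as log2(CPM + 0.5) on the vertical axis, in 27 libraries grouped by strain on the horizontal axis; red diamonds are libraries numbered 1, grey circles the other numbers, and black bars the mean of 3 libraries. For Egr1 the red diamond is on top in 6 of 7 strains, PWK/PhJ replicate 3 is low for most genes, and Fosb stays at or near 0 CPM throughout.

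The first comparison asked whether the strains differ. Across the 9 strains, edgeR's quasi-likelihood test called 2 of the 9 tested members at a Benjamini-Hochberg adjusted p under 0.05, Fos (adjusted p = 0.0429) and Egr1 (adjusted p = 0.0395), where 74.2% of all genes tested were called. The strain means of Egr1 covered a range of 3.20 on the log2(CPM + 0.5) scale and those of Fos 2.04. Junb ranged over 1.56 (edgeR adjusted p = 0.176), Atf3 over 1.32 (0.0722), Jun over 1.22 (0.343), Dusp1 over 1.12 (0.225), Ier2 over 0.999 (0.140), Ier3 over 0.555 (0.336) and Jund over 0.429 (0.682), and none of these 7 passed. DESeq2 called 3 members, Fos (adjusted p = 0.0283), Egr1 (0.0142) and Atf3 (0.0245), where it called 79% of all genes. With no filter on low counts edgeR called 6 members and 11042 genes in all. That fit held every gene with a count, a larger set than the 14482 of the main fit, and its share was not computed. With Kupffer cell and endothelial marker means as covariates edgeR called 4 members and 9800 genes, against 10746 of the same 14482 genes otherwise. Junb and Ier2 were called in both. In the 20 libraries not numbered 1, a choice made after seeing the data, edgeR called 5 members by strain, Egr1 (adjusted p = 0.00142), Fos (0.0227), Jun (0.0365), Ier2 (0.0372) and Junb (0.0428), and 9447 genes in all from a set filtered anew. Without PWK/PhJ replicate 2 as well, 4 of these 5 were called and Fos was not (edgeR adjusted p = 0.189), and without PWK/PhJ replicate 3 instead all 5 were. Of the 27 fits that left out 1 library each, that without PWK/PhJ replicate 3 called 4 members. They were Ier2 (range 1.35, edgeR adjusted p = 0.0410), Dusp1 (range 1.90, 0.0344), Fos, whose range was then 3.19, and Egr1. Across those 27 fits 10352 to 11245 of all genes were called, so the members stayed below the share of all genes. Atf3 was called without CAST/EiJ replicate 4 (edgeR adjusted p = 0.0252). Without C57BL/6J replicate 1 the Jund range was 0.659. On the log2(CPM + 2) scale the ranges were 1.27 for Fos, 0.603 for Atf3 and 0.192 for Ier3. The edgeR calls were narrow. That of Fos was lost in 15 of the 27 fits that left out 1 library each (replicates 2 and 4 of C57BL/6J, 1 of CAST/EiJ, 2 and 3 of DBA/2J, 1 and 2 of PWK/PhJ, 2, 3 and 4 of WSB/EiJ, 2 and 3 of 129S1/SvImJ, and 1, 2 and 3 of NOD/ShiLtJ), with adjusted p up to 0.155. That of Egr1 was lost in 11 (replicates 2 and 4 of C57BL/6J, 4 and 5 of CAST/EiJ, 2, 3 and 4 of DBA/2J, 1 of NZO/HlLtJ, 1 and 2 of PWK/PhJ, and 3 of NOD/ShiLtJ), with adjusted p up to 0.124.

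The SD of the log2 level between libraries of a strain had a median of 0.674 over the 9 tested members, against 0.246 over all genes tested. It was 1.54 for Egr1, above 99.98% of genes tested, 1.11 for Fos, 0.741 for Junb, 0.727 for Dusp1, 0.674 for Jun, 0.551 for Ier2, 0.504 for Atf3, 0.326 for Jund and 0.290 for Ier3. The share of a gene's variance lying between strain means was 34.4% in the median member and 66.9% in the median gene tested. It was 51.8% for Atf3 and between 22.6% (Jund) and 40.0% (Ier2) for the other 8 members. For each of the 9 tested members, all 8 pairs of neighbours in the order of strain means had overlapping libraries, as 53.8% of all genes tested did. The libraries of the highest and the lowest strain did not overlap for 2 of the 9, Atf3 and Ier3, against 93.3% of all genes.

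In order of strain mean, Egr1 ran from PWK/PhJ (59.0 ± 57.3 CPM, SD, n = 3) and NZO/HlLtJ (42.4 ± 45.4) down to CAST/EiJ (6.53 ± 5.10) and DBA/2J (3.33 ± 1.80). Fos ran from PWK/PhJ (4.73 ± 4.15), CAST/EiJ (2.66 ± 2.64) and NZO/HlLtJ (2.06 ± 2.63) to WSB/EiJ (0.314 ± 0.135). The SD was close to or above the mean in the strains at the top of each order. The strains at the bottom, DBA/2J for Egr1 and WSB/EiJ for Fos, are the 2 without a library numbered 1. Over the 20 libraries with other numbers PWK/PhJ had the highest mean of both genes through replicate 2 alone (62.0 ± 80.7 CPM of Egr1 and 4.22 ± 5.74 of Fos, SD, n = 2), while the lowest was NOD/ShiLtJ for Egr1 (2.24 ± 0.82, SD, n = 2) and 129S1/SvImJ for Fos (0.204 ± 0.127, n = 2). WSB/EiJ was then the third highest for Egr1 (14.1 ± 9.27, n = 3) and DBA/2J the fourth highest for Fos (0.557 ± 0.376, n = 3). By mean CPM, PWK/PhJ was highest for 6 of the 9 tested members (Fos, Junb, Egr1, Ier2, Ier3 and Dusp1) and NOD/ShiLtJ lowest for 4 (Jun, Junb, Atf3 and Ier2). On the log2(CPM + 0.5) scale, CAST/EiJ was highest for Ier2 and 129S1/SvImJ lowest for Atf3.

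Against the mean of the other 8 strains, PWK/PhJ had 2 of 9 members called by edgeR, where 34.2% of all genes were called and 19.4% were called higher. Its Fos was higher by 2.43 ± 0.68 (log2 fold change ± SE, edgeR adjusted p = 0.00675) and its Egr1 by 2.27 ± 0.67 (edgeR adjusted p = 0.0105). In each gene 2 of the 3 PWK/PhJ libraries were high, and replicate 3, with 0.166 CPM of Fos and 4.91 CPM of Egr1, was not. Without PWK/PhJ replicate 2 the differences were 1.74 for Fos (edgeR adjusted p = 0.145) and 1.23 for Egr1 (0.329), and neither was called. In the 20 libraries not numbered 1, where the strain has only replicates 2 and 3, they were 3.21 and 3.41 (edgeR adjusted p = 0.00133 and 6.87e-05). These values rested on replicate 2, since without it as well the differences were -1.42 for Fos and -0.25 for Egr1, neither called (edgeR adjusted p = 0.493 and 0.868, with replicate 3 the lone PWK/PhJ library and assumed to vary like the other strains). Markers of other liver cells were also high in this strain. All 10 endothelial markers and 6 of 10 Kupffer cell (liver macrophage) markers were called higher in PWK/PhJ and 1 Kupffer marker, Marco, lower. The endothelial markers summed to 215 to 732 CPM in PWK/PhJ and 57.6 to 279 elsewhere, the Kupffer markers to 150 to 442 and 35.04 to 292, and none of these 20 markers was at 0 in any library. In PWK/PhJ replicates 1, 2 and 3 the endothelial sum was 732, 215 and 266 CPM, beside 52.9, 119 and 4.91 CPM of Egr1. Of 10 stellate cell markers 4 were called higher and 0 lower, with sums of 133 to 190 CPM in PWK/PhJ and 31.6 to 147 elsewhere. Of 5 tested erythroid markers 3 were called higher and 1, Alas2, lower, with sums of 4.71 to 26.2 and 2.19 to 36.6 CPM, and the part of stellate and erythroid RNA was not tested. With the means of the endothelial and Kupffer lists as covariates the PWK/PhJ differences were 5.52 for Fos and 5.41 for Egr1 (edgeR adjusted p = 0.000508 and 0.000560). Most of these markers were themselves called higher in PWK/PhJ, so strain and covariates are bound up in this fit. It cannot give the size of the differences with the share of other cells removed. In bulk libraries such as these, fewer cells of a type and less RNA per cell cannot be told apart.

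WSB/EiJ had 1 member called, where 24.7% of all genes were. Atf3, a factor of the CREB family induced by many stresses, was at 1.98, 0.807 and 1.89 CPM in replicates 2, 3 and 4 of WSB/EiJ, of which replicate 2 was the highest of the 27 libraries and replicate 4 the third highest. The difference was 1.30 ± 0.48 (edgeR adjusted p = 0.0493). It was not called by DESeq2 (adjusted p = 0.0503), and it was lost in 17 of the 27 fits that left out 1 library, among them replicate 2 (edgeR adjusted p = 0.225) and replicate 4 of WSB/EiJ (0.194), replicates 1 and 3 of A/J, 2 and 4 of C57BL/6J, 1 and 5 of CAST/EiJ, 2 and 4 of DBA/2J, 1 and 3 of NZO/HlLtJ, 1 and 3 of PWK/PhJ, 1 of 129S1/SvImJ and 2 and 3 of NOD/ShiLtJ (0.0509 to 0.0600). In the 20 libraries not numbered 1 the difference was 1.24 and was not called (edgeR adjusted p = 0.0737), though it was without PWK/PhJ replicate 2 as well (1.38, edgeR adjusted p = 0.0460). In the other 7 strains edgeR called no member, and DESeq2 called 1, Egr1 lower in DBA/2J (log2 difference -2.39, DESeq2 adjusted p = 0.0408, edgeR adjusted p = 0.152), where DESeq2 called 4.99% of all genes lower. The share of all genes called by edgeR was 18.1% for C57BL/6J, 18.4% for 129S1/SvImJ, 27.5% for A/J, 13.3% for DBA/2J, 14.9% for NOD/ShiLtJ, 27.6% for NZO/HlLtJ and 37.9% for CAST/EiJ. The 9 contrasts share libraries and are not independent.

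The next comparison set the 7 libraries numbered 1 against the other numbers, with strain in the model. That number 1 stands apart for this group of genes was known beforehand, so the values describe its size gene by gene. After adjustment over all genes, edgeR called 0 of the 9 members and 0% of genes higher in replicate 1, and 0.00691% lower, which is the single gene Tsc22d3. At an unadjusted p under 0.05, 6 of the 9 members were higher, against 2.78% of all genes higher and 2.57% lower, and no member was lower. DESeq2, at an adjusted p under 0.05, called 3 members higher, Junb and Egr1 (adjusted p = 0.00185 each) and Ier2 (0.0167), where it called 0.117% of all genes higher, 17 in number. The DESeq2 log2 differences of these 3 genes, 1.09, 2.31 and 0.74, were close to those of edgeR below. With no filter on low counts edgeR called 5 members higher (Fos, Jun, Junb, Egr1 and Ier2). It called 174 genes in all there, from a larger set of genes, against 1 with the filter, and the edgeR adjusted p of Egr1 was 6.66e-14.

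Egr1 had the largest difference, 2.28 ± 0.45 (log2 fold change ± SE, edgeR adjusted p = 0.122), and ranked 5 of 14482 genes by p. In CPM the lowest, median and highest of the 7 libraries numbered 1 were 12.4, 49.1 and 93.8, and those of the other 14 libraries of the same strains 1.66, 5.47 and 119. The groups overlapped only through NZO/HlLtJ replicate 2 and PWK/PhJ replicate 2, the 2 other-numbered libraries above 12.4 CPM. Strain by strain, replicate 1 exceeded the mean of the other libraries by 0.801 (C57BL/6J) to 3.43 (A/J) on the log2(CPM + 0.5) scale.

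Fos was higher by 2.02 ± 0.51 (edgeR adjusted p = 0.217) and ranked 40 by p. The libraries numbered 1 had 0.844, 2.79 and 5.75 CPM as lowest, median and highest, and the others 0.0395, 0.397 and 8.28. Of the 14 others 5 lay above the lowest library numbered 1. The difference was positive in 7 of 7 strains, from 0.421 in C57BL/6J to 2.49 in NZO/HlLtJ.

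Junb, an AP-1 subunit, was higher by 1.10 ± 0.22 (edgeR adjusted p = 0.122) and ranked 4 by p. Its libraries numbered 1 ranged from 7.98 to 24.1 CPM (median 18.7) and the others from 3.29 to 21.7 (median 6.58), with 6 of the 14 others above the lowest library numbered 1. Ier2, a small nuclear regulator, was higher by 0.75 ± 0.17 (edgeR adjusted p = 0.133, rank 24). It ranged from 17.4 to 32.2 CPM (median 23.5) against 8.02 to 37.2 (median 13.03), and 3 of the 14 others were above the lowest library numbered 1. Jun, the main partner of Fos, was higher by 0.84 ± 0.23 (edgeR adjusted p = 0.340, rank 62), at 7.54 to 19.3 CPM (median 11.3) against 2.22 to 14.1 (median 7.01). For each of these 3 genes only 1 of the 14 other libraries exceeded the median of the libraries numbered 1.

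Fos, Jun, Junb, Egr1 and Ier2, 5 of the 9 tested members, had replicate 1 above the mean of the other libraries in 7 of 7 strains, as 0.994% of all genes tested did. Replicate 1 was the single highest library in 6 strains for Jun, Egr1 and Ier2, a count of 6 or 7 that 1.05% of all genes reached. It was highest in 5 for Fos, Junb and Ier3, so that 6 of 9 members had at least 5, against 5.76% of genes.

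The remaining tested members were Ier3, Dusp1, Jund and Atf3. Ier3, which limits cell death, was higher by 0.87 ± 0.37 (edgeR adjusted p = 0.815, rank 441) but rested on 2 to 21 counts per library, and DESeq2 gave it no adjusted p. Dusp1 differed by 0.27 ± 0.30 (edgeR adjusted p = 0.999), Jund, the AP-1 subunit present in resting cells, by 0.26 ± 0.14 (adjusted p = 0.996), and Atf3 by -0.36 ± 0.44 (adjusted p = 0.999). Dusp1 ranged from 15.5 to 47.3 CPM in libraries numbered 1 and from 7.87 to 44.0 in the others, and its 129S1/SvImJ libraries 18.6, 12.0 and 44.0 put replicate 3 on top. Atf3 was higher in replicate 1 than the mean of the others in 4 of 7 strains and the highest library in 2, C57BL/6J (1.23 CPM) and NOD/ShiLtJ (0.454). It was lowest in replicate 1 in 2 others, with 0.228, 0.983 and 0.672 CPM in replicates 1, 2 and 3 of A/J and 0.178, 0.658 and 0.577 in NZO/HlLtJ. Leaving out 1 library moved the differences of the last 3. Jund was at 0.09 without C57BL/6J replicate 1, Dusp1 between 0.11 (without PWK/PhJ replicate 1) and 0.42 (without 129S1/SvImJ replicate 3), and Atf3 between -0.61 (without C57BL/6J replicate 1) and -0.14 (without CAST/EiJ replicate 4), and none was called in any of these fits. Whether these members differ from Egr1 in their response to replicate number was not tested.

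**Figure D2:**
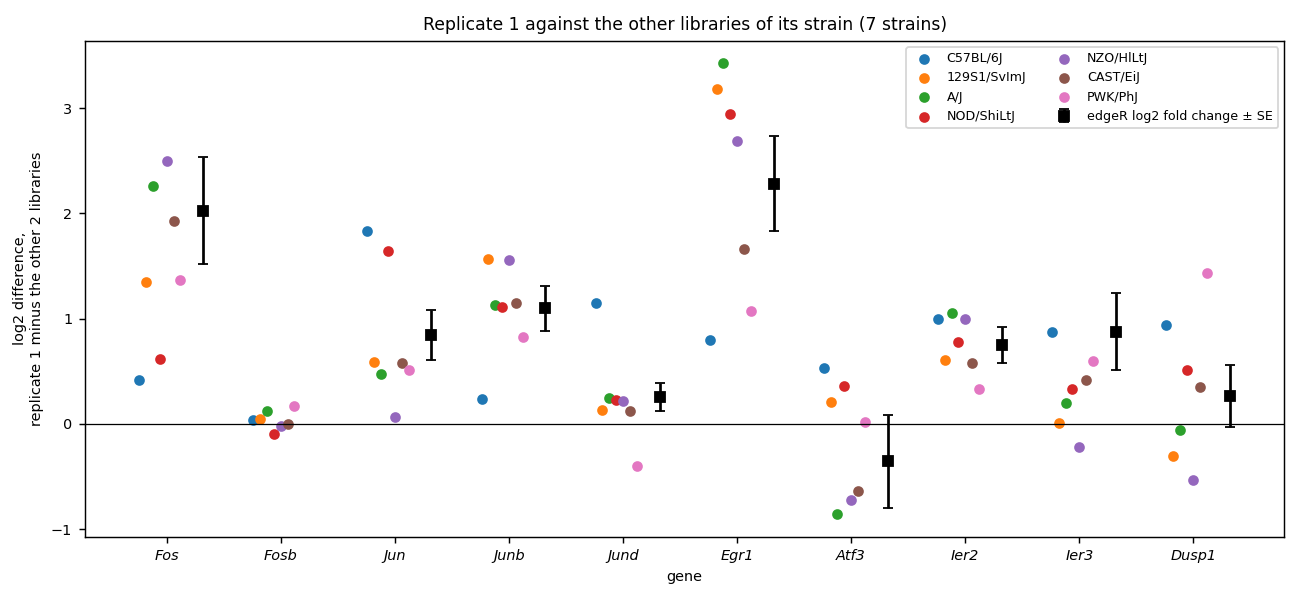
Difference between replicate 1 and the mean of the other libraries of its strain, on the log2(CPM + 0.5) scale (vertical axis), for the 10 genes (horizontal axis); coloured points are the 7 strains, and black squares with bars are the edgeR log2 fold change ± SE. Every strain lies above 0 for Fos, Jun, Junb, Egr1 and Ier2, and strains lie on both sides for Jund, Atf3, Ier3 and Dusp1.

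Single libraries carried weight. Without PWK/PhJ replicate 2, the library with the highest Egr1, edgeR called 4 members higher in replicate 1: Egr1 (2.69, adjusted p = 0.000147), Fos (2.57, 0.0108), Junb (1.24, 0.0057) and Ier2 (0.89, 0.00351), where 17 genes were called in all. Without PWK/PhJ replicate 1 it called Egr1 (2.59, edgeR adjusted p = 0.0216) among 10 genes, and without C57BL/6J replicate 1 it called Junb (1.23, edgeR adjusted p = 0.0404) among 7. Leaving out any other library gave 0 called members. When all 5 replicate numbers were compared as a factor, edgeR called 0 of 9 members and 0% of all genes, and at an unadjusted p under 0.05 it found 5 of 9 members (Fos, Jun, Junb, Egr1 and Ier2) against 3.13% of genes. DESeq2 called 1 member in that comparison, where it called 0.214% of genes.

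High libraries were not confined to number 1. In DBA/2J, which has none, replicate 4 was the highest library for 8 of the 9 tested members, and their mean deviation from the strain mean there was 0.433 on the log2 scale. That library also had a Kupffer marker sum of 35.04 CPM (131 and 195 in replicates 2 and 3), an endothelial sum of 73.4 (194 and 167), a stellate sum of 56.9 (122 and 110) and a mitochondrial share of 3.26% of counts (6.55% and 4.94%), and the part of these in the deviation was not tested. The largest mean deviations were those of PWK/PhJ replicate 2 (0.681) and, in the other direction, PWK/PhJ replicate 3 (-1.11). Libraries numbered 1 deviated by 0.426 (PWK/PhJ) to 0.632 (NOD/ShiLtJ), and in NOD/ShiLtJ replicate 1 was highest for 9 of 9 members. The share of all genes highest in the same library was not computed for DBA/2J or NOD/ShiLtJ. These counts of members therefore have no background to be read against. In WSB/EiJ the deviations stayed between -0.183 and 0.181.

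Libraries numbered 1 also differed in other measures. The endothelial marker sum was the lowest of its strain in replicate 1 in 6 of 7 strains, with a median of 121 CPM (range 57.6 to 732) against 164 (68.9 to 279) in the other libraries of those strains, and the stellate cell sum was lowest in 5 (median 54.5 against 82.1 CPM). Kupffer marker sums had medians of 84.0 (42.7 to 442) and 92.7 CPM (36.3 to 292). Of 10 hepatocyte markers 2 were lower and 0 higher in replicate 1 at an unadjusted edgeR p under 0.05, Tat, a tyrosine-degrading enzyme (-0.70 ± 0.17, edgeR adjusted p = 0.181), and Pck1, an enzyme of gluconeogenesis (-0.71 ± 0.28, adjusted p = 0.788). At that level 5 of 10 stellate and 1 of 10 endothelial markers were lower, and 0 of 5 tested erythroid markers were higher or lower, with a median log2 difference of 0.66. Among all genes tested 2.57% were lower and 2.78% higher at that level. Transcripts of mitochondrial genes took their lowest share in replicate 1 in 5 of 7 strains. With Kupffer and endothelial marker means as covariates, the replicate 1 difference was 1.79 for Egr1 (edgeR adjusted p = 0.349), 1.58 for Fos (0.559), 0.93 for Junb (0.331), 0.77 for Jun (0.645) and 0.61 for Ier2 (0.475). Library totals were 25667718 to 32241591 in libraries numbered 1 and 17015932 to 35078483 in the others. The part of stellate cells, erythroid RNA, hepatocyte genes and mitochondrial content in these differences was not tested.

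Deviations from the strain mean were then compared between genes, to see which members went up and down in the same libraries. Egr1 was set against the other 8 tested members over 27 libraries, with 100000 permutations within strains and adjustment over the 8 relations. It followed Fos (r = 0.874, permutation adjusted p = 0.00036, rho = 0.838, adjusted p = 4e-04), Ier2 (r = 0.869, adjusted p = 8e-05, rho = 0.770, adjusted p = 2e-04) and Junb (r = 0.852, adjusted p = 0.000747, rho = 0.835, adjusted p = 2e-04) most closely. The permutation p of Ier2 before adjustment, 1e-05, is the smallest these permutations can give. Jun (r = 0.589, rho = 0.615, permutation adjusted p = 0.00318 and 0.00156) and Ier3 (r = 0.485, rho = 0.511, 0.0116 and 0.0126) followed less closely. Dusp1 (r = 0.227, rho = 0.145, permutation adjusted p = 0.530 and 0.645), Jund (0.167 and 0.197, 0.471 each) and Atf3 (-0.026 and -0.012, 0.919 and 0.963) did not pass. Without the 2 libraries farthest from the Egr1 median, replicate 1 of A/J and of 129S1/SvImJ, r was 0.857 for Fos, 0.857 for Ier2, 0.820 for Junb, 0.585 for Jun and 0.512 for Ier3.

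Among the 20 libraries not numbered 1, centred again on their own strain means, no relation with Egr1 passed the correction. There r was 0.848 for Fos (rho = 0.650, permutation p = 0.0919 and 0.0742, adjusted p = 0.245 and 0.198), 0.813 for Ier2 (rho = 0.641, p = 0.0313 and 0.0548, adjusted p = 0.125 and 0.198), 0.655 for Ier3 (rho = 0.702, p = 0.0152 and 0.0177, adjusted p = 0.121 and 0.142), 0.645 for Junb (rho = 0.525, p = 0.182 and 0.137, adjusted p = 0.291 and 0.253) and 0.481 for Jun (rho = 0.432, p = 0.142 and 0.158, adjusted p = 0.285 and 0.253). Without the 2 farthest libraries, replicates 2 and 3 of PWK/PhJ, r was 0.472 for Fos, 0.556 for Ier2, 0.569 for Ier3, 0.289 for Junb and 0.347 for Jun. Number 1 has 1 library per strain, so no within-strain relation can be had in it.

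**Figure D3:**
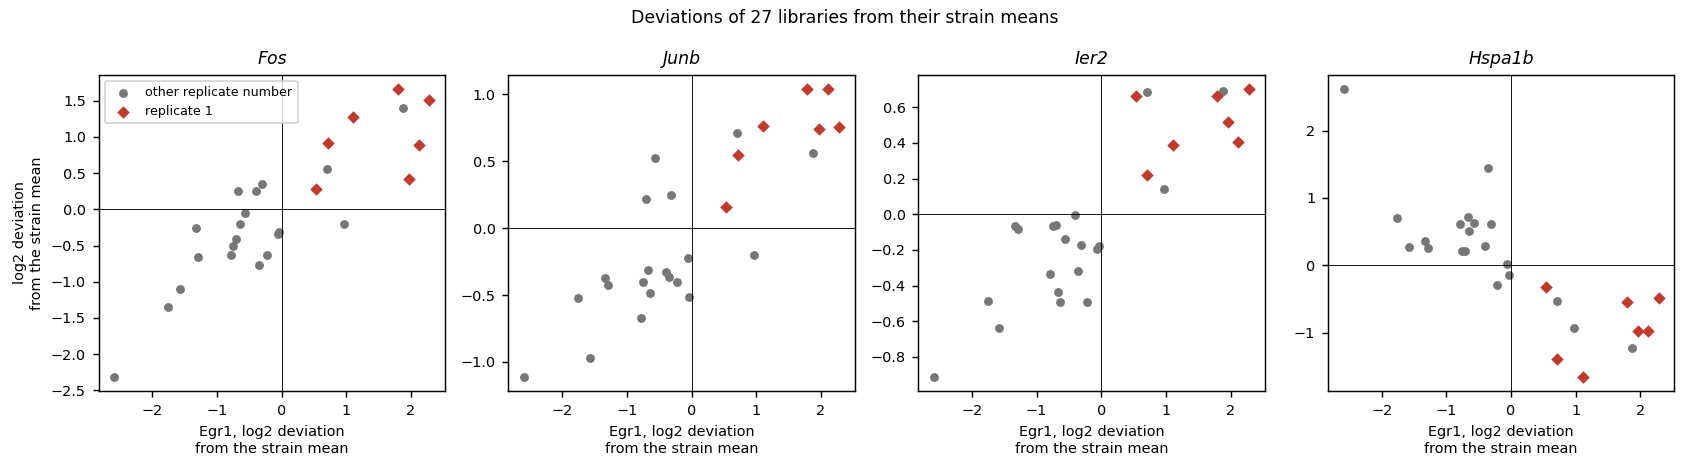
Log2 deviation from the strain mean of Fos, Junb, Ier2 and Hspa1b (vertical axes) against that of Egr1 (horizontal axis) in 27 libraries; red diamonds are numbered 1. All 7 diamonds lie to the right of 0 for Egr1 and above 0 for Fos, Junb and Ier2, and below 0 for the heat shock gene Hspa1b. Hspa1b was picked for its negative correlation with the members in these libraries.

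Outside the group, the genes most like it were taken as those whose deviation correlated best with the mean deviation of the 9 tested members, among 10611 named genes over 27 libraries that share strain, number and depth. They were Zfp36l1, an mRNA decay factor (r = 0.829), Hes1, a transcriptional repressor downstream of Notch (0.824), Angptl8, a secreted regulator of triglyceride uptake (0.814), Zscan25 (0.793), Atg4d (0.780), Spry4, a feedback inhibitor of growth factor receptors (0.776), the kinase gene Pim1 (0.771), Pym1 (0.760), Fam110a (0.750) and Plekhh3 (0.745). The members' mean deviation was 0.426 to 0.632 in the libraries numbered 1. High values of the chosen genes there therefore follow in part from the choice and are no separate support. Zfp36l1 and Pim1 are also counted below among the other immediate early genes. Pim1 was 10.5 ± 3.04 CPM (SD, n = 7) in libraries numbered 1 and 5.27 ± 2.78 (n = 14) in the other libraries of those strains, and replicate 1 was highest in 7 of 7 strains. Hes1 was 5.47 ± 1.33 against 2.46 ± 1.84 CPM, and highest in 6.

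The most opposite genes were Hspa1b (r = -0.830) and Hspa1a (-0.812), the heat-inducible Hsp70 pair, Tsc22d3 (-0.812), a gene induced by glucocorticoids, Slc25a51 (-0.779), a mitochondrial NAD carrier, and the clock gene Per1 (-0.773). Tsc22d3, the gene edgeR called in the replicate 1 comparison, was 42.8 ± 13.1 CPM (SD, n = 7) in libraries numbered 1 and 120 ± 43.4 (n = 14) in the others, a log2 difference of -1.47 ± 0.21 (edgeR adjusted p = 0.00525), and was lowest in replicate 1 in 7 of 7 strains. Since these 5 genes were picked by the same correlation, low values in replicate 1 follow in part from the choice. Per1 was 3.98 ± 2.88 against 14.4 ± 7.71 CPM and lowest in 7 of 7. Hspa1b was 2.87 ± 1.67 against 13.5 ± 24.8 CPM and also lowest in 7 of 7, with 97.9 CPM in PWK/PhJ replicate 3, where Egr1 and Fos were low, and 6.36 in PWK/PhJ replicate 2, where they were highest. Hspa1a and Hspa1b are near-identical copies, so how their reads were split is uncertain.

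Related genes outside the 10 were counted in the same comparison, each count to be read against the 2.78% of all genes that were higher and the 2.57% that were lower in replicate 1 at an unadjusted edgeR p under 0.05. Of 29 other immediate early genes tested, 8 were higher and 3 lower at that level, none passed adjustment, and the median log2 difference was 0.11, where it was 0.84 over the 9 tested members and 0.01 over all genes. Chosen after its values were seen, Socs3, a cytokine feedback inhibitor, was 0.89 ± 0.21 higher (edgeR adjusted p = 0.148) and highest in 7 of 7 strains, and Gadd45b, a stress gene, was at -1.45 ± 0.41 (adjusted p = 0.361). Of 9 other AP-1 genes 1 was higher at that level, Fosl2 (0.50 ± 0.14, edgeR adjusted p = 0.340). Of 8 other MAP kinase phosphatases and 25 upstream kinases and factors, among them Srf, Elk1 and Egfr, 0 were higher or lower, with medians of 0.12 and 0.07. Of 13 heat shock genes 7 were lower and 0 higher, with a median of -0.39, and of 6 early inflammatory genes 2 were lower (Nfkbia and Tnfaip3), with a median of 0.13.

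**Figure D4:**
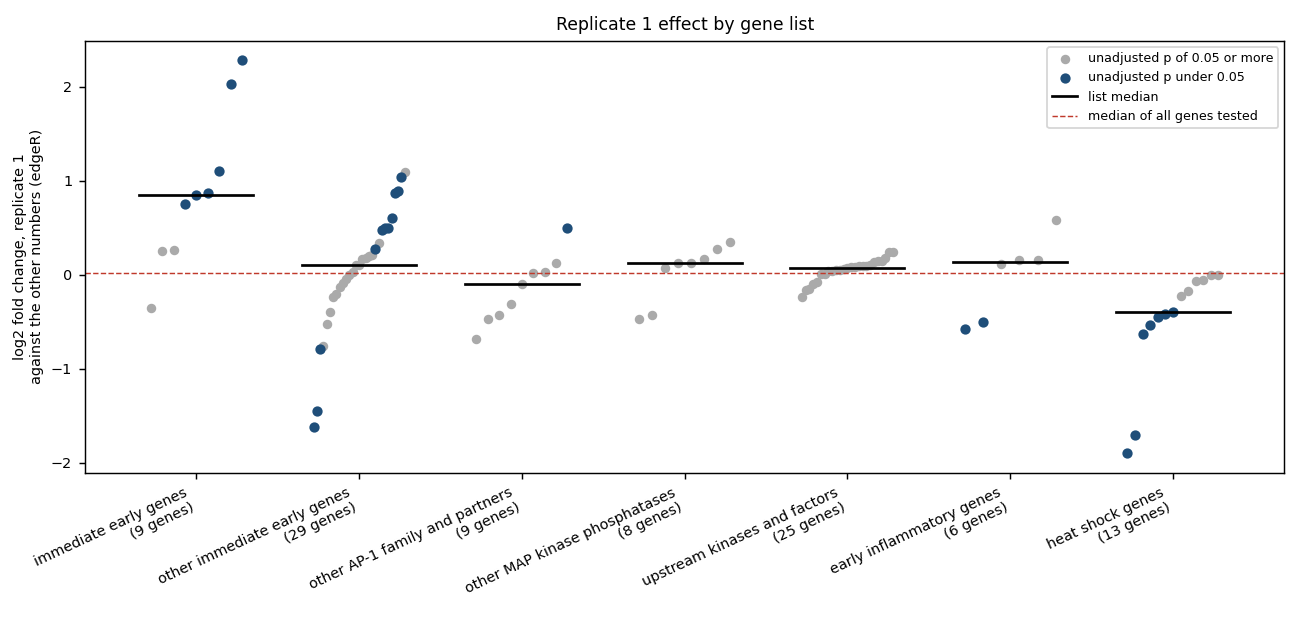
edgeR log2 fold change of replicate 1 against the other numbers (vertical axis) for each tested gene of 7 lists (horizontal axis); dark points have an unadjusted p under 0.05, black bars are list medians and the dashed line the median of all genes. Dark points lie above 0 for 6 of the 9 immediate early genes, on both sides for the 29 other immediate early genes, and below 0 for 7 of 13 heat shock genes.

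The same lists were also counted between strains. Of the 29 other immediate early genes 17 were called by edgeR, of the 13 heat shock genes 10, of the 25 upstream genes 15, of the 8 phosphatases 4, of the 6 inflammatory genes 4 and of the 9 AP-1 genes 2, each to be read against 74.2% of all genes. By range of strain means on the log2(CPM + 0.5) scale, the widest called were Gadd45g (3.14, highest in A/J), Plk2 (2.71, highest in PWK/PhJ), Nr4a1 (2.43, highest in WSB/EiJ) and Ccn1 (2.37, highest in DBA/2J) among the other immediate early genes. The called AP-1 genes were Maff (1.56) and Fosl2 (1.29), and the phosphatases Dusp7 (1.74), Dusp14 (1.61), Dusp5 (1.38) and Dusp16 (0.96). Elk3 (2.49), Map2k6 (1.67), Rps6ka1 (1.09) and Met (0.98) led the upstream list, Cxcl1 (2.27), Icam1 (1.93), Il1b (1.36) and Nfkbiz (1.32) the inflammatory list. Hspa1a (6.51) and Hspa1b (4.69), both highest in WSB/EiJ and lowest in A/J, exceeded the range of every immediate early gene in the 10. Hspb1 (3.22) did so narrowly, beside 3.20 for Egr1, and Hspa8 (1.94) followed.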

How the data were processed

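Poly(A) RNA of female mouse hepatocytes was sequenced in 27 libraries, 3 from each of 9 strains. The authors deposited 1 table of estimated counts per Ensembl gene, of which 14.7% of values were not whole. The submitters' processing notes name FastQC 0.11.5, DESeq2 and the builds GRCm38 and mm10; the aligner, the counting program and the annotation release are not given in the sources used here. IDs were matched to GENCODE M21 symbols (42462 of 43346; the 884 without a symbol held 0.0579% of counts).

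Estimated counts were rounded and genes filtered with filterByExpr by strain. Tests used edgeR 4.0.16 (quasi-likelihood, TMM scaling) in R 4.3.3 with limma 3.58.1, and Benjamini-Hochberg adjustment over the 14482 genes kept. Models held strain, or strain with an indicator of replicate 1 or the replicate number as a factor. CPM use TMM-adjusted totals, and strain ranges and deviations use log2(CPM + 0.5). The scripts were tested on simulated data.

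The alternatives were DESeq2 1.42.0, median-of-ratios size factors, no filter, a mean of at least 10 counts, counts not rounded, Kupffer cell and endothelial marker means as covariates, the replicate number as a block, only the 7 strains with a library numbered 1, log2(CPM + 2), leaving out each library and, added after seeing the data, only the 20 libraries not numbered 1 (strain tests), also less PWK/PhJ replicate 2 or 3. All 10 members are named, with up to 4 called genes of each related list by size, the 10 genes most like the members and the 5 most opposite. The members, the lists and the comparison of replicate 1 were chosen with earlier results of these data known.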

Additional observations from a re-analysis of the deposited data

How the results depend on the processing

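Recomputed were the replicate 1 differences of the 9 tested members and the 3 strain differences that edgeR called (Fos and Egr1 in PWK/PhJ, Atf3 in WSB/EiJ), and 2 of these reversed, each in 1 alternative. Of 305 replicate 1 values 291 stayed on their side of the threshold and 14 came to pass it. Of 111 values of the 3 strain differences 23 no longer passed and 2 reversed. The strain ranges of the 9 tested members were recomputed as well. Of 341 such values 292 stayed on their side of the threshold, 28 no longer passed and 21 came to pass it. Differences of other members and strains were not recomputed. The 27 fits without 1 library each gave 0 to 4 members called by strain (2 with all libraries), 2 to 5 calls in the 9 contrasts of a strain with the other 8 (3 with all), 0 to 4 members called for replicate 1 (0 with all), 1 to 17 genes called for replicate 1 (1 with all) and 0 to 1 members called for replicate number (0 with all). DESeq2 gave 3 members and 52 genes called for replicate 1 and 1 member for replicate number. With no filter on low counts 6 members were called by strain, 8 in the contrasts, 5 members and 174 genes for replicate 1 and 2 members for replicate number. Counts that were not rounded gave 4 genes for replicate 1. With Kupffer cell and endothelial marker means as covariates 4 members were called by strain and 6 in the contrasts, and 0 genes for replicate 1. The 20 libraries not numbered 1, an alternative chosen after seeing the data, gave 5 members called by strain and 5 calls in the contrasts. Without PWK/PhJ replicate 2 as well these were 4 and 8, and the PWK/PhJ differences of Fos (-1.42) and Egr1 (-0.25) reversed; without PWK/PhJ replicate 3 instead they were 5 and 11. The cause of these shifts was not tested. By strain, 10352 to 11245 of all genes were called in the 27 fits without 1 library each, against 10746 with all libraries. For the contrasts all genes were counted in the main fit only, with 13.3% (DBA/2J) to 37.9% (CAST/EiJ) called. The counts of members in the contrasts of the alternatives therefore have no share of all genes beside them. Of the same-numbered libraries of different strains 17 of 76 pairs had deviations correlated over 0.1 (r from -0.293 to 0.275; 10 of 21 pairs for number 1 alone), against 44 of 248 pairs of different numbers, and 7 of 27 libraries correlated best with a library of their own number. Not every pair was over 0.1, so the numbers were not taken as a pairing. A fit with the replicate number as a block gave 5 calls in the contrasts. In that block fit Egr1 (edgeR adjusted p = 0.00886), Junb (0.0351) and Ier2 (0.0159) were called by strain and Fos (0.0535) was not, and Atf3 in WSB/EiJ was not called (0.130). Depth limits Fosb, Ier3 and Atf3, whose libraries held at most 5, 21 and 55 counts.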
